A study of Mus musculus with 2 samples.

Results

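Genes that pattern the dorsal hindbrain and genes of the glia of the central nervous system were read on 2 Affymetrix MOE430A arrays of the mouse cochlea. The set held 9 genes, *Zic1*, *Zic2*, *Zic4*, *En2*, *Pax6*, *Olig1*, *Olig2*, *Aqp4* and *Fabp7*, out of 12393 genes measured. Its members were taken by their symbols, as every probe set that the array annotation pairs with 1 of these symbols alone, which gave 15 of 22626 probe sets. The genes were chosen from values of these same arrays, in which hindbrain and glial genes had been seen higher in the array titled -/-, so their direction is a description and not a test. The array titled -/- and the array titled +/+ were both made from total RNA of C57BL/6J embryos at E18.5, with 8 cochleae per array according to the labels (the methods describe pools of 2 embryos), from matings of mice heterozygous for a disrupted *Igf1* gene. The otic capsule, the cartilage and bone around the cochlea, was kept in the dissected tissue and the vestibular organs were removed. The study compared *Igf1*-null with wild-type cochleae. However, the source name and description of each array give the genotype opposite to that in its title, so the arrays are named here by title, and each difference is the log2 level in the array titled -/- minus that in the array titled +/+. If the source names hold, every direction given below turns round with respect to genotype.

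ZIC proteins are zinc finger transcription factors of the dorsal neural tube. They are kept on in cerebellar granule cells and are also known from the meninges and from mesenchyme around the otic vesicle. EN2 is a homeodomain factor of the midbrain-hindbrain junction and cerebellum, and PAX6 a paired homeodomain factor of neural progenitors, cerebellar granule cells and the eye. OLIG1 and OLIG2 are basic helix-loop-helix factors of the oligodendrocyte lineage, the cells that form central myelin. AQP4 is the main water channel of astrocytes and is also known from supporting cells of the mature organ of Corti. FABP7 is a fatty acid binding protein of radial glia that is also made by glia of peripheral ganglia. Central glia accompany the auditory nerve only as far as the transition zone near its exit from the cochlea, and from there to the hair cells the nerve is covered by Schwann cells and satellite glia.

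Of the 9 genes, 5 had a promoter among the windows taken here from the RefSeq table of GRCm38.p6, namely *Zic1*, *Zic4*, *Pax6*, *Olig2* and *Fabp7*. The windows taken need not be all of that table, so the count does not show that the other genes lack an entry in it. *Zic1* and *Zic4* are neighbours on chromosome 9 with no protein-coding gene between them, and so are *Olig1* and *Olig2* on chromosome 16 and *Zic2* and *Zic5* on chromosome 14. The 250 bases before the annotated start of 4 genes are shown, those of *Zic1* and *Zic4* because these neighbours had the like differences described below, that of *Olig2* as the available one of the *Olig* pair, and that of *Fabp7* as a glial gene read well above background. The capitals mark the E-box, CANNTG, the 6-letter site that basic helix-loop-helix factors such as OLIG1 and OLIG2 bind.

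Zic1, chr9:91365769-91366018, minus strand: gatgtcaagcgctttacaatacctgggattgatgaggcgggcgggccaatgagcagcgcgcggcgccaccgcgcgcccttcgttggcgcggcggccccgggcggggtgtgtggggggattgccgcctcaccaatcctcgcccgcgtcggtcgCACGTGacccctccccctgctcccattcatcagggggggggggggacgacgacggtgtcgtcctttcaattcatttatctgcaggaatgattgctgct
Zic4, chr9:91368722-91368971, plus strand: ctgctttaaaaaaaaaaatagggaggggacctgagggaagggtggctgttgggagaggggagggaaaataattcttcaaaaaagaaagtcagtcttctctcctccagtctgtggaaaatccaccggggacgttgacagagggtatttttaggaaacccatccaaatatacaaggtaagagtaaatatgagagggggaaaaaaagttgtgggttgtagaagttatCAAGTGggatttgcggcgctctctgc
Olig2, chr16:91225300-91225549, plus strand: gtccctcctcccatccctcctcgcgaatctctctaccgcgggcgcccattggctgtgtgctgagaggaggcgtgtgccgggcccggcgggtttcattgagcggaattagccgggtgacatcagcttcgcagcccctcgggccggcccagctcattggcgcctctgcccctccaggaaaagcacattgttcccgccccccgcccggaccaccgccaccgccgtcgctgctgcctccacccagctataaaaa
Fabp7, chr10:57784673-57784922, plus strand: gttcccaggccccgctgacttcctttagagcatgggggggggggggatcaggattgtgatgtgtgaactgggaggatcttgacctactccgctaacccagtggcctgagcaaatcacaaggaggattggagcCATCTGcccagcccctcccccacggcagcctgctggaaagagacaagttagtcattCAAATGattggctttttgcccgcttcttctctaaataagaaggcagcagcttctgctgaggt

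An E-box stood in 66.2% of the 32851 promoter windows of this length that were taken. In the 4 windows shown there was 1 for *Zic1*, 1 for *Zic4*, 0 for *Olig2* and 2 for *Fabp7*. The letters CCTGCTG, part of the motif bound by ZIC factors, were found once in the *Fabp7* window, in none of the *Zic1*, *Zic4* and *Olig2* windows, and in 8.44% of all windows. TATAAA was found in the *Olig2* window, at its 3′ end, and in 12.4% of all windows. The SOX core ACAAT was found in the *Zic1*, *Olig2* and *Fabp7* windows and in 27.7% of all windows, and the homeodomain site TAATTA in none of the 4 and in 4.84% of all windows. Both strands were searched, and no match overlapped another in these 4 windows. A match is a match of letters only, and binding was not measured.

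The levels are log2 values, so that a difference of 1 is a change of 2-fold, and the median difference over all probe sets, 0.022, was subtracted from each. With 1 array per title there was no replicate and no test was made, so precision is limited by the count of arrays. The nearest to an error that these arrays hold is how far the differences of probe sets for 1 gene lie apart. This spread had a pooled SD of 1.10 below a mean level of 5.63, of 0.23 from there to 7.86 and of 0.098 above, and it does not cover variation between animals or dissections. *Igf1* itself was present on both arrays, at 11.03 in the array titled -/- and 11.42 in the array titled +/+ by its probe set of the highest level. All 3 *Igf1* probe sets were lower in the array titled -/-, by differences of -0.42, -0.75 and -0.58. Whether these probe sets lie in the disrupted part of the gene was not established here, so their values do not settle the labels. Of 24 genes listed for the cochlear epithelium, not all of them limited to it, 11 lay above the median level of all genes. *Otor*, the otoraplin of the spiral ligament and capsule, was at 12.37 in the array titled -/- and 12.57 in the array titled +/+, and *Epyc*, a proteoglycan of supporting cells, at 11.62 and 11.74 in that order.

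All 9 genes were higher in the array titled -/- by the probe set of highest level, by 0.22 to 1.30 with a median of 0.45. Over all genes, 50.5% had a difference above 0 and 5.54% a difference above 1, and of the 9 genes 1, *Olig1*, was above 1. Of the 15 probe sets, 13 were higher in the array titled -/- and the other 2, both of *Pax6*, were listed at 0 on both arrays, while 50% of all probe sets had a difference above 0. Since this direction was known when the genes were chosen, these counts lend it no support.

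**Figure D1:**
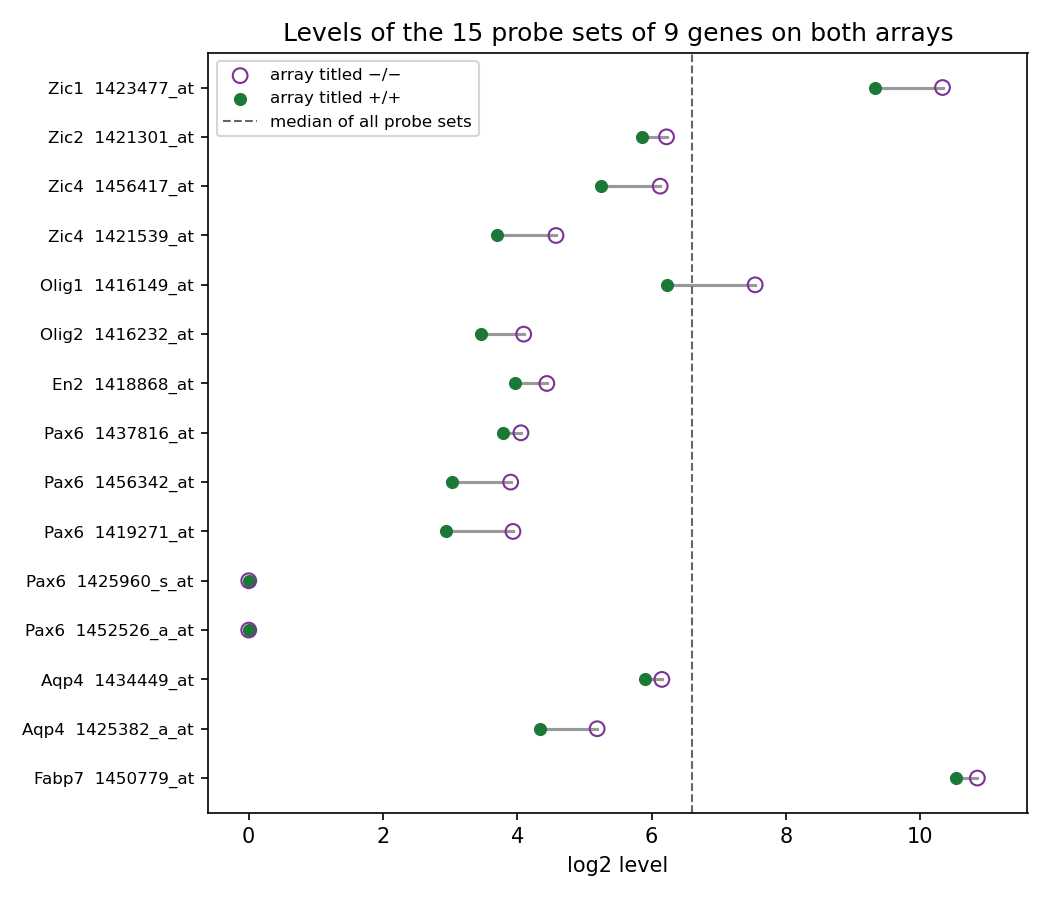
Log2 level of each of the 15 probe sets of the 9 genes (rows, with probe set names) in the array titled -/- (open purple) and the array titled +/+ (filled green), joined by a line, with the median of all probe sets dashed. The open circle lies to the right in 13 rows, and the circles coincide at 0 in 2 rows of *Pax6*.

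*Zic1* was measured by 1 probe set, at 10.33 in the array titled -/- and 9.33 in the array titled +/+. Its difference was 0.98, or 1.98-fold, against a spread between probe sets of 0.098 at such levels. Its level exceeded that of 95.7% of all probe sets in the array titled -/- and of 89.3% in the array titled +/+. Probe sets were sorted by mean level into 4 equal bins. Among the 5657 of the highest bin, 16 had a larger difference than *Zic1*, and the SD of the differences in that bin was 0.18.

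*Zic4*, the neighbour of *Zic1*, was measured by 2 probe sets. The stronger was at 6.13 in the array titled -/- and 5.25 in the array titled +/+, and the weaker at 4.58 and 3.69 in that order. Their differences of 0.85 and 0.86 were thus alike, although the weaker one lay in a range where the pooled SD between probe sets of a gene was 1.10. *Zic2* was at 6.22 in the array titled -/- and 5.86 in the array titled +/+, a difference of 0.34 against a spread of 0.23 at this level. *Zic5*, which lies beside *Zic2* and was not chosen with it, ran the other way, at 7.07 in the array titled -/- and 7.27 in the array titled +/+, a difference of -0.22 that did not exceed the spread of 0.23.

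*Olig1* had the largest difference of the 9 genes. It was at 7.54 in the array titled -/- and 6.22 in the array titled +/+, which gave 1.30 or 2.46-fold, against a spread of 0.23. The level in the array titled -/- lay above the median of all probe sets, 6.60, and that in the array titled +/+ below it. In its bin of levels, 4 of 5656 probe sets had a larger difference. *Olig2* was near background on both arrays, at 4.10 in the array titled -/- and 3.47 in the array titled +/+. Its difference of 0.61 was smaller than the spread of 1.10 at such levels, and 30.3% of probe sets in the lowest bin of levels exceeded it.

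*En2* was also read near background, at 4.44 in the array titled -/- and 3.97 in the array titled +/+, a difference of 0.45 that lay within the spread between probe sets. *Pax6* was measured by 5 probe sets. The strongest was at 4.05 in the array titled -/- and 3.79 in the array titled +/+. The next was at 3.90 in the array titled -/- and 3.02 in the array titled +/+, and the third at 3.94 and 2.94 in that order. These 3 differed by 0.24, 0.86 and 0.97, all within the spread of 1.10, and the last 2 probe sets were listed at 0 on both arrays. For *En2*, *Pax6* and *Olig2* alike, the difference between the arrays was thus within the spread between probe sets.

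*Fabp7* was at 10.85 in the array titled -/- and 10.53 in the array titled +/+, above 97.3% and 96.5% of all probe sets. Its difference of 0.30, or 1.23-fold, was larger than the spread of 0.098 between probe sets at such levels, and 3.57% of the probe sets in its bin exceeded it. *Aqp4* was measured by 2 probe sets. The stronger was at 6.15 in the array titled -/- and 5.91 in the array titled +/+, a difference of 0.22 that did not exceed the spread of 0.23. The weaker was at 5.19 in the array titled -/- and 4.33 in the array titled +/+, a difference of 0.83, and the mean over both was 0.53.

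**Figure D2:**
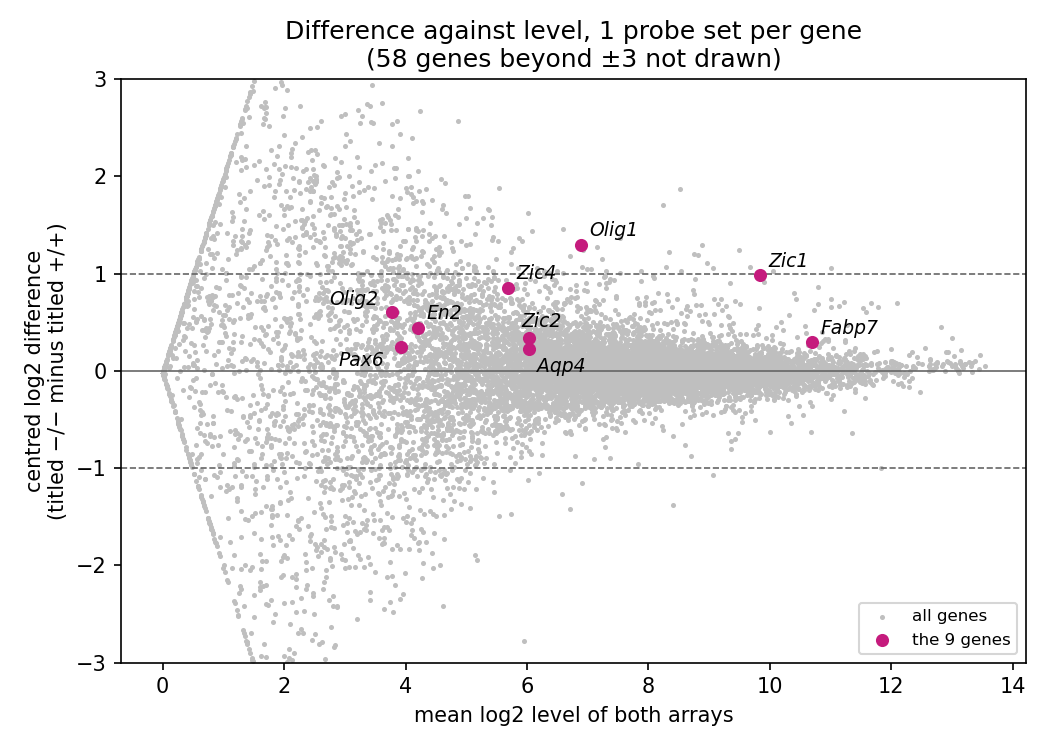
Centred log2 difference (titled -/- minus titled +/+) against the mean log2 level of both arrays, with 1 point per gene and its strongest probe set, the 9 genes in pink and dashed lines at 1 and -1. *Olig1*, *Zic1* and *Fabp7* lie at or above the upper edge of the cloud at their levels, whereas *Olig2*, *En2* and *Pax6* lie inside its broad low-level part (58 genes beyond 3 in either direction are not drawn).

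Set against the spread between probe sets of a gene, the 9 genes thus fell into 3 kinds. That spread was pooled over many genes within these same arrays and does not measure the precision of the contrast. The values sorted are those by which the genes were chosen, so the sorting is a description and lends their direction no support. *Zic1*, *Olig1* and *Zic4* differed by more than 3 times the spread between probe sets of a gene at their level, as did *Fabp7* with a smaller difference of 0.30. *Zic4* is the least certain of these, since its mean level of 5.69 lies just above 5.63, below which the spread was 1.10. In its bin of levels, 341 of 5656 probe sets had a larger difference than *Zic4*, and the SD of the differences there was 0.54. *Zic2* exceeded that spread by less, and *Aqp4*, *Olig2*, *En2* and *Pax6* did not exceed it.

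To place these genes, the same differences were taken in 15 further lists, of the cells and tissues next to or inside the dissected region. Among 16 measured genes of ZIC and hindbrain patterning outside the set, 9 were higher and 6 lower in the array titled -/-, and *Fgf8* was listed at 0 on both. Their median was 0.32, beside 0.0028 for all genes, and it was 0 with values below the 25th percentile of levels set to that percentile. *Hoxa2*, a hindbrain HOX gene that is also active in head mesenchyme, was at 6.18 in the array titled -/- and 5.63 in the array titled +/+. *Pax3*, of the dorsal neural tube and neural crest, was at 5.40 and 4.74 in that order, and *Egr2*, of hindbrain segments and Schwann cells, at 5.42 and 5.61. *Lmx1a*, which is not limited to the roof plate, and the roof plate gene *Wnt1* ran the other way at low levels, by -2.30 and -2.01. *Lhx1* and *Pax7*, also at low levels, differed by 3.22 and 1.72. *En1*, the partner of *En2*, was at 0.34 in the array titled -/- and listed at 0 in the array titled +/+. Of this list, 1 gene, *Zic5*, was above the median level of all genes, 7.10, so most of these values were imprecise.

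Cerebellar neuron genes were split, with 6 of 12 higher and 6 lower and a median of -0.0047. *Reln*, the secreted reelin of granule cells and other neurons, was at 8.45 in the array titled -/- and 7.73 in the array titled +/+, a difference of 0.70. *Calb1* and *Car8*, which mark Purkinje cells but are not limited to them, differed by -0.39 and -0.78. *Pcp2*, the Purkinje cell protein, was at 6.16 in the array titled -/- and 3.57 in the array titled +/+. *Neurod1*, which also stands in the list of spiral ganglion neurons, differed by 1.88, *Gabra6* by 1.37 and *Cbln1* by 0.98. *Cntn2* and *Cbln3* differed by -1.57 and -1.20. All of these from *Pcp2* on lay below the median level of all genes.

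Neural progenitor and radial glia genes showed nearly no difference in level between the arrays. Of 13 measured, 6 were higher and 7 lower in the array titled -/-, with a median of -0.034, and none passed 1 in either direction. *Dbi*, *Notch1*, *Sox9* and *Ptprz1*, all of which the cochlea expresses as well, differed by -0.048, -0.034, -0.15 and 0.019.

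Most other genes of the oligodendrocyte lineage list, several of them also expressed outside this lineage, were lower in the array titled -/-. Of 12 measured, 3 were higher and 8 lower in the array titled -/-, and *Mobp*, a myelin protein gene of central glia, was listed at 0 on both. *Mog*, another gene of central myelin, was at 1.09 in the array titled -/- and listed at 0 in the array titled +/+, and the progenitor factors *Nkx2-2* and *Nkx6-2* were at 0.19 and 0.59 in the array titled -/- and listed at 0 in the array titled +/+. These defining genes were thus at or near the floor. *Mbp* and *Cnp*, which Schwann cells express too, differed by -0.72 and -0.22. *Pdgfra* and *Cspg4*, which mesenchymal and mural cells also express, differed by -0.079 and -0.019, within the spread of 0.098 at such levels. The median of the list was -0.15. Its summed level on the linear scale was 4256 in the array titled -/- and 4879 in the array titled +/+.

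Astrocyte genes were higher in the array titled -/- in 11 of 16 cases and lower in 4, with a median of 0.33. The summed linear level of this list was 6461 in the array titled -/- and 5344 in the array titled +/+. *Gja1*, a gap junction gene that many cochlear cells express, differed by 0.31, *Ndrg2* by 0.47, *Fgfr3* by 0.11 and *S100b* by -0.15. At lower levels, *Aldh1l1*, *Ncan*, *Slc4a4* and *Gfap* differed by 0.82, 0.77, 0.54 and 0.36. *Bcan* and *Ntsr2* differed by -0.0015 and -0.22, and *Gfap* and *Ntsr2* lay near background. *Agt*, the angiotensinogen gene, had the largest difference at 1.38. *Slc1a2*, the astrocyte glutamate transporter, was listed at 0 on both arrays and *Mlc1* at 0 in the array titled +/+. This median was 0.095 with all probe sets of a gene averaged.

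Most genes listed for central neurons, many of them shared with neurons of ganglia, were higher as well. Of 16 measured, 12 were higher and 4 lower in the array titled -/-, with a median of 0.44. Of the 10 above the median level of all genes 9 were higher, beside 49.1% of all genes above that level. The summed linear level of this list was 5727 in the array titled -/- and 4178 in the array titled +/+. *Tubb3*, the neuronal tubulin, was at 9.63 in the array titled -/- and 8.94 in the array titled +/+, a difference of 0.67. *Stmn2*, *Dcx* and *Mapt*, microtubule proteins of neurons, differed by 0.45, 0.44 and 0.38. The inhibitory markers *Gad1* and *Slc32a1* differed by 1.34 and 1.89 at levels of 6.59 and 5.04 in the array titled -/-, against 5.23 and 3.13 in the array titled +/+, whereas *Gad2*, the third inhibitory marker of the list, was at 4.60 in the array titled -/- and 5.21 in the array titled +/+, a difference of -0.63. *Slc6a5*, the glycine transporter of hindbrain neurons, also ran the other way, by -1.92 near background.

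Of 10 factors taken as forebrain genes, 6 were higher and 4 lower, with a median of 0.35 that was 0.19 with low values raised to the 25th percentile. Several of them, *Neurod2*, *Tbr1* and *Eomes* among these, are also known from parts of the cerebellum or its precursors, so the list does not separate forebrain from hindbrain. *Neurod2*, *Tbr1* and *Eomes* differed by 2.69, 2.31 and 1.75, at levels of 4.58, 4.17 and 5.32 in the array titled -/- and 1.87, 1.84 and 3.54 in the array titled +/+. The 4 genes of the highest level in the list went both ways, with *Bcl11b* at 0.36 and *Dlx5*, *Dlx1* and *Neurod6* at -0.33, -0.22 and -0.35. *Dlx5* is also a gene of the otic vesicle and of bone. In lens and retina genes, taken for *Pax6*, 7 of 10 were higher with a median of 0.48, which was 0 with low values raised, and all but *Cryab* lay below the median level of all genes.

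**Figure D3:**
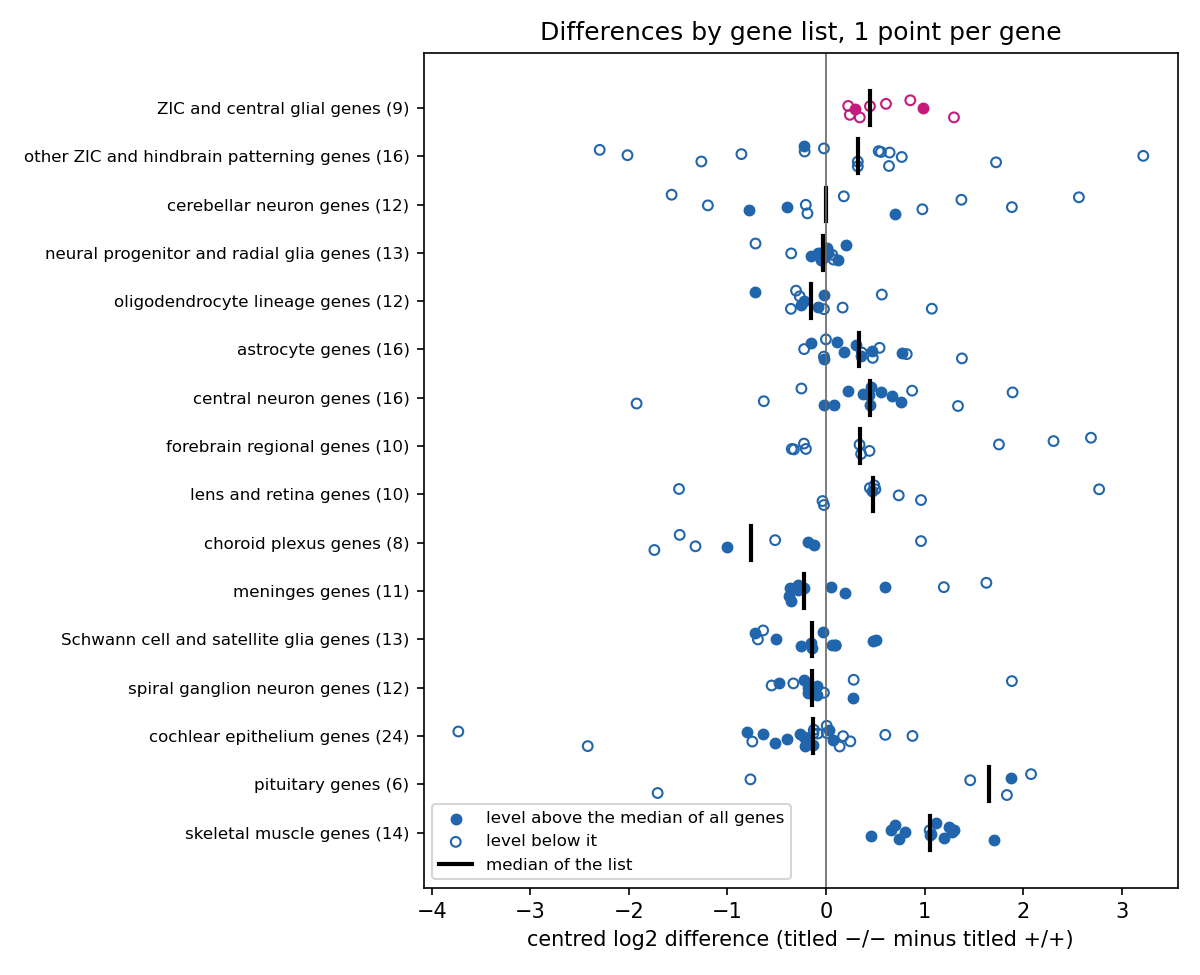
Centred log2 difference (titled -/- minus titled +/+) of each gene in the set of 9 (pink, top row) and in 15 further lists (blue), with the number of measured genes in brackets, filled points for levels above the median of all genes and black bars for list medians. Central neuron, astrocyte and skeletal muscle genes have medians of 0.33 to 1.06, whereas spiral ganglion, Schwann cell and cochlear epithelium genes have medians of -0.14 to -0.13.

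Genes of the cochlea and its nerve went both ways. Of 13 Schwann cell and satellite glia genes, 5 were higher and 8 lower in the array titled -/-, with a median of -0.14, and *Pmp22* and *Apoe* differed by 0.094 and 0.51. *Gap43*, a growth cone gene, differed by 0.47. The median was -0.036 with all probe sets of a gene averaged. *Fabp7*, made by such glia, differed by 0.30 as given above. Of 12 genes of spiral ganglion neurons, 3 were higher and 8 lower, with a median of -0.14, and *Nefl* and *Nefm*, of the neurofilaments, had the same difference of -0.18, against 0.27 for *Prph*, a neuronal intermediate filament gene, and 1.88 for *Neurod1*, a factor of developing neurons. Of the 24 genes listed for the cochlear epithelium, 9 were higher and 15 lower, with a median of -0.13. Among the 11 above the median level of all genes, 2 were higher and 9 lower, with a median of -0.22. Of all genes above that level, 49.1% were higher. *Tecta*, of the tectorial membrane, differed by -0.52. The potassium channel genes *Kcne1* and *Kcnq1*, of the stria vascularis, passed -1 at low levels. *Kcne1* was at 0.72 in the array titled -/- and 4.43 in the array titled +/+, and *Kcnq1* at 3.42 and 5.81 in that order.

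The coverings of the brain were read too. Of 11 genes of the meninges, 5 were higher and 6 lower, with a median of -0.23. The largest differences of this list were 1.63 for *Slc6a13* and 1.19 for *Slc22a6*, both at levels below the median of all genes. *Foxc1*, a forkhead factor of meninges and periotic mesenchyme, was at 9.18 in the array titled -/- and 9.53 in the array titled +/+, a difference of -0.37, whereas *Ptgds*, a prostaglandin synthase, differed by 0.60. Of 8 choroid plexus genes, 1 was higher and 7 lower, with a median of -0.76 that was -0.15 with low values raised. *Ttr*, the transthyretin gene, which is not limited to the choroid plexus, was at 11.34 in the array titled -/- and 12.32 in the array titled +/+.

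The lists of skeletal muscle and pituitary genes, from outside both the brain and the cochlea, had medians in the same direction as the 9 genes. All 14 skeletal muscle genes measured were higher in the array titled -/-, with a median of 1.06 and a summed linear level of 26330 there and 15573 in the array titled +/+. *Acta1* and *Ckm*, of the muscle fibre, differed by 0.45 and 0.70. Of the 14 genes, 9 differed by more than 1, against 5.54% of all genes. *Acta1* had the smallest difference of the list and *Myh7*, a myosin gene, the largest at 1.71. Of 6 pituitary genes, 4 were higher with a median of 1.65, and their summed linear level was 918 in the array titled -/- and 283 in the array titled +/+. *Gh*, the growth hormone gene, differed by 1.87 and *Pomc* by 1.46, while *Prl* differed by -1.71 near background. The pituitary median was 0.41 with low values raised to the 25th percentile. The part of brain, pituitary or muscle tissue in the 2 dissections was not tested as a source of the *Zic1*, *Zic4*, *Olig1* or *Fabp7* differences. With 1 array per title, the amount of such tissue, expression per cell and genotype cannot be told apart, and in tissue RNA more cells of a type cannot be told from more RNA per cell.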

How the data were processed

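Values of 2 Affymetrix MOE430A arrays, of total RNA from E18.5 cochleae, were used. The authors hybridised biotin-labelled cRNA and name MAS5.0 and RMA, then multi-mgMOS of PUMA, without versions. Which of them made the deposited log2 levels, how the arrays were scaled, and whether a column is 1 array or a summary are not given in the sources used. The base was read from the values, which run from 0 to 13.64, so that the highest fits the log2 range of a scanner.

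Of 22690 probe sets, 64 controls were left out. In the platform annotation 20380 had 1 symbol, 691 several and 1555 none, and 20351 matched RefSeq genes of GRCm38.p6. The probe set with the largest mean stood for a gene, and differences were centred on their median. A gene listed at 0 on both arrays was counted as neither higher nor lower. The 9 genes and the 15 lists, with 238 entries in all of which 202 were measured, were chosen with earlier results of these data known. All 9 genes were named, and of each list genes among the 4 of highest level and defining genes listed at 0. List genes past 1 above the median level were named too, except in skeletal muscle, where only *Myh7* of these was named. Further list genes were named after their values were seen, namely *Lmx1a*, *Wnt1*, *Lhx1*, *Pax7*, *Pcp2*, *Agt*, *Gad1*, *Slc32a1*, *Slc6a5*, *Gad2*, *Gap43*, *Neurod1*, *Kcne1*, *Kcnq1*, *Neurod2*, *Tbr1*, *Eomes* and *Prl*. Others so named were *Slc6a13*, *Slc22a6*, *Ncan*, *Aldh1l1*, *Slc4a4*, *Gfap*, *Bcan*, *Ntsr2*, *Cbln1*, *Gabra6*, *Cntn2* and *Cbln3*. A few genes stand in more than 1 list. No test was made. The alternatives were no centring, quantile normalization, loess with a span of 0.3, values raised to the 25th percentile, probe sets averaged, those shared between transcripts left out, high levels only, and limits of 2 and 0.5. Steps were tested on simulated data, with changes of 2-fold or more planted at higher levels only. This did not cover the levels of *Zic4*, *Olig2*, *En2* and *Pax6*, or smaller changes. Python 3.11.15, numpy 2.4.6, pandas 2.3.3, statsmodels 0.14.6 and matplotlib 3.10.9 were used.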

Additional observations from a re-analysis of the deposited data

How the results depend on the processing

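No paired analysis was possible because there was 1 array per title. All 9 genes kept a positive difference without centring, after quantile normalization, after loess, with probe sets averaged and without probe sets ending in _x_at, _s_at or _a_at. With 4.11, the 25th percentile, as the floor of all values, *Olig2* and *Pax6* lay at the floor on both arrays with a difference of 0.00 and the other 7 stayed positive. Restricted to levels above the median of all probe sets, 3 genes with 3 probe sets were left by construction, *Zic1*, *Olig1* and *Fabp7*, all 3 higher in the array titled -/-, and their median was 0.98. The count of genes above 1 was 2 without centring, since *Zic1* then passed it, and it was 0 at a limit of 2 and 4 at a limit of 0.5. Of 57 values of the 9 genes under these alternatives, 56 moved by less than the spread between probe sets, and *Aqp4* moved to 0.53 with its probe sets averaged. Much of this was fixed by construction. Centring shifts every gene by the same 0.022, averaging cannot change a gene with 1 probe set, and the floor leaves higher levels as they were. *Olig2* and *Pax6*, at 0.00 with the floor, are among the 56 because their spread was 1.10. Levels near background limit *Olig2*, *En2* and *Pax6* most. With the same floor, the medians of the hindbrain patterning and of the lens and retina genes were 0, and those of forebrain and choroid plexus genes 0.19 and -0.15.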
